A study of Drosophila melanogaster with 8 samples.

Results

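The glutathione S-transferase genes of the delta, epsilon, omega, sigma, theta and zeta classes were described in RNA from the testis of the fruit fly Drosophila melanogaster. Members were the genes of the deposited table whose symbol is Gst followed by a class letter (D, E, O, S, T or Z) and a number, a rule that uses no measured value. This gave 35 of 16018 genes, of which 11 were delta, 14 epsilon, 3 omega, 1 sigma, 4 theta and 2 zeta. The RNA came from strains in which a GAL4 driver, tj-GAL4 or eya-GAL4, switches on green fluorescent protein (GFP) from a UAS transgene. Per the labels, the tj driver marks early and the eya driver mature somatic cyst cells, the support cells that wrap the germ cells. GFP-positive cells were collected by fluorescence-activated sorting from dissociated whole testes, and the whole suspension of each strain was sequenced beside them. The 4 groups were tj sorted, tj unsorted, eya sorted and eya unsorted cells, with 2 libraries each, 8 in all. The labels name the 2 of a group biological replicates. Every group carries a driver and the GFP transgene, and the labels state neither the age of the flies nor a group without GFP. The expression of a driver defines the sorted cells, so they can include any cell in which that driver is active. Paired values below are replicates 1 and 2, or replicates 3 and 4 for eya unsorted cells, which the deposited table numbers so.

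Glutathione S-transferases are enzymes that join the peptide glutathione to reactive or foreign molecules, and some of them reduce peroxides, rearrange metabolites or bind small ligands instead. The delta and epsilon classes expanded in insects and are known for the breakdown of insecticides and of products of lipid peroxidation. In the fly, the transcription factor cnc and its partner maf-S, held in check by Keap1, are known to raise transcription of several of these genes under oxidative stress, GstD1 among them.

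Levels are given as CPM, the reads of a gene relative to the library's reads in genes (counts per 1e6 reads, TMM-scaled), and levels of different genes are compared per kilobase of the deposited gene length. Gene counts per library ran from 10771009 to 25344721, so that 3 reads, the limit that a count of 0 allows, correspond to between 0.112 and 0.310 CPM, and such limits cover counting error only. One library stood apart. The tj unsorted replicate 2 lay at 102.6 on the second principal component, where the other libraries lay between -31.8 and -2.96, and mitochondrially encoded genes took 31.7% of its counts, against 4.68% to 19.8% elsewhere. Summed over a list of 12 gut enzymes, it held 4369 CPM, against 12.8 to 178 CPM in the other unsorted and 138 to 243 CPM in the sorted libraries. Between replicates, 23 of the 33 transferase genes tested differed by more than 2-fold in tj unsorted cells, against 1 in tj sorted, 0 in eya sorted and 4 in eya unsorted cells; the shares of all genes were 34%, 7.34%, 2.88% and 4.1% in that order of groups. The label of the sorted cells was checked on the driver genes: tj had 45.4 and 28.9 CPM in tj sorted, against 1.52 and 1.96 CPM in tj unsorted cells, and 19.9 and 14.9 CPM in eya sorted, against 2.55 and 1.64 CPM in eya unsorted cells. The eya gene had 211 and 147 CPM in tj sorted, against 41.0 and 16.7 CPM in tj unsorted cells, and 153 and 146 CPM in eya sorted, against 35.8 and 46.2 CPM in eya unsorted cells. Both genes were higher in the sorted libraries of both strains. Of 11 markers of early cyst cells, 7 rose in tj sorted cells and 7 rose and 1 fell in eya sorted cells. Of 8 markers of mature cyst cells, 3 rose and 2 fell in tj sorted cells, and 4 rose and 2 fell in eya sorted cells. Of 11 spermatocyte markers, 0 were called in tj sorted and 11 fell in eya sorted cells, with median log2 fold changes of -1.02 and -2.22. They summed to 125 and 183 CPM in tj sorted, against 453 and 184 CPM in tj unsorted cells. Over all genes, 8.98% were called higher and 2.38% lower in tj sorted cells, and 28% and 20% in eya sorted cells.

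The transferase transcripts took a larger share of the RNA of sorted than of unsorted cells. Their summed reads were 2.71% (Wilson 95% interval 2.706% to 2.723%) and 2.03% (2.021% to 2.032%) of the gene counts in tj sorted cells, against 0.209% (0.207% to 0.211%) and 0.212% (0.210% to 0.215%) in tj unsorted cells. They were 3.45% (3.444% to 3.465%) and 3.58% (3.570% to 3.587%) in eya sorted cells, against 0.201% (0.198% to 0.203%) and 0.171% (0.169% to 0.173%) in eya unsorted cells. These intervals cover counting error only and not the spread between replicates. The sorted and unsorted libraries did not overlap in this share in either strain. A single gene, GstS1, held 84.7% and 82.7% of the transferase reads in tj sorted cells, against 56.3% and 24.9% in tj unsorted cells, and 82.6% and 80.5% in eya sorted, against 48.8% and 55.8% in eya unsorted cells. In bulk RNA, fewer cells of a type and less RNA per cell cannot be told apart, and the shares hold for the mixture.

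**Figure D1:**
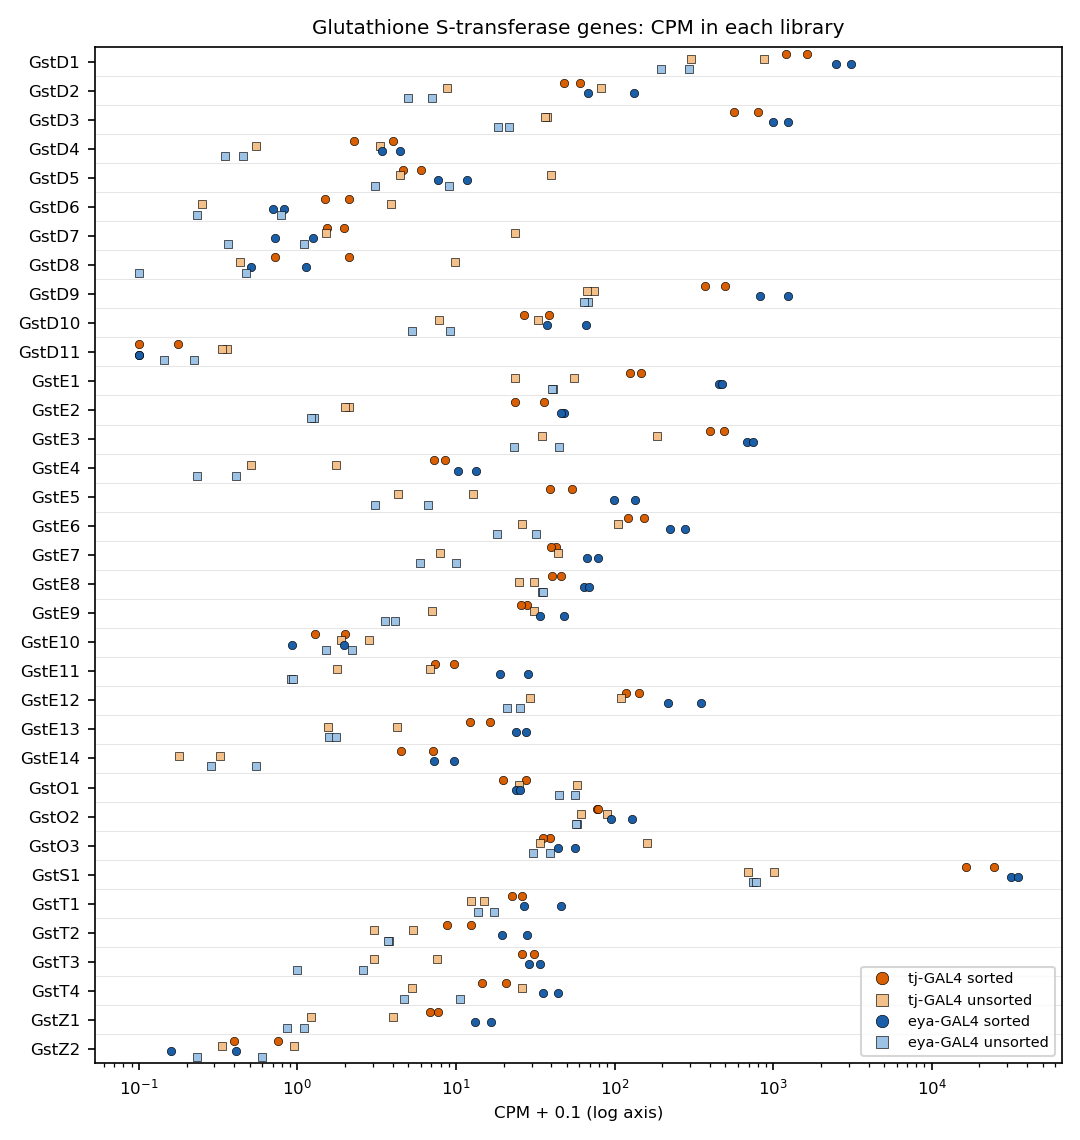
CPM of each of the 35 glutathione S-transferase genes in each of the 8 libraries (CPM + 0.1 on a log axis; circles are sorted and squares unsorted libraries; orange is tj-GAL4 and blue eya-GAL4). GstS1 stood at 24588 and 16455 CPM in tj sorted and 31778 and 35016 CPM in eya sorted cells, above each of the other 34 genes in those libraries.

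In tj sorted cells, 10 of the 33 transferase genes tested rose over tj unsorted cells and none fell; over all 12570 genes tested, 8.98% were called higher and 2.38% lower (edgeR quasi-likelihood test, Benjamini-Hochberg adjusted p under 0.05). The 10 genes were GstD3, GstD9, GstE1, GstE2, GstE4, GstE5, GstE13, GstE14, GstS1 and GstT3. At an unadjusted p under 0.05 there were 16, as for 30.4% of all genes, with GstD7 in the lower direction among them. DESeq2 called 12 higher and 2 lower (GstD5 and GstD7) and limma 5 higher and 1 lower (GstD7). Both tj sorted libraries were above both tj unsorted libraries for 19 of the 33 genes, a pattern that 32.9% of all genes showed. Fold changes are on the log2 scale, first over second group, ± SE, and their median was 0.91 over the 33 genes and -0.08 over all genes. The median over the genes was 2.37 without the tj unsorted replicate 2 and 0.37 without the replicate 1, where it was -0.01 and 0.13 over all genes. Without the tj unsorted replicate 2, 24 of 32 genes tested were called higher and 1 lower, where 25% of all genes were called higher and 10.8% lower.

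In eya sorted cells, 26 of the 33 genes rose over eya unsorted cells and none fell, where 48% of all genes were called, 28% higher and 20% lower. These 26 included the 10 that rose in tj sorted cells. Both eya sorted libraries were above both eya unsorted libraries for 28 genes, as for 42% of all genes, and below both for GstO1 alone, as for 44.3% of all genes. At an unadjusted p under 0.05 there were 27 genes, as for 58% of all genes, with GstO1 in the lower direction among them. DESeq2 and limma called none lower, where 23.3% and 10.6% of all genes were called lower. GstO1 was called lower with the eya groups fitted alone, as were 36.3% of all genes. With a crossed replicate block it was called lower too, as were 27.2% of all genes. The median log2 fold change was 3.52 over the 33 genes and -0.09 over all genes. By class, the genes that rose were 6 of 10 delta, 13 of 14 epsilon, 1 of 3 omega, the sigma gene, 4 of 4 theta and the zeta gene tested in eya sorted cells, and 2 of 10, 6 of 14, 0 of 3, the sigma gene, 1 of 4 and not the zeta gene in tj sorted cells. Of the 35 genes, GstD11 and GstZ2 did not reach 1 CPM in 2 libraries and were not tested, and GstE14 reached it in sorted libraries alone, so its presence among the genes tested rests on the group in which it was high.

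**Figure D2:**
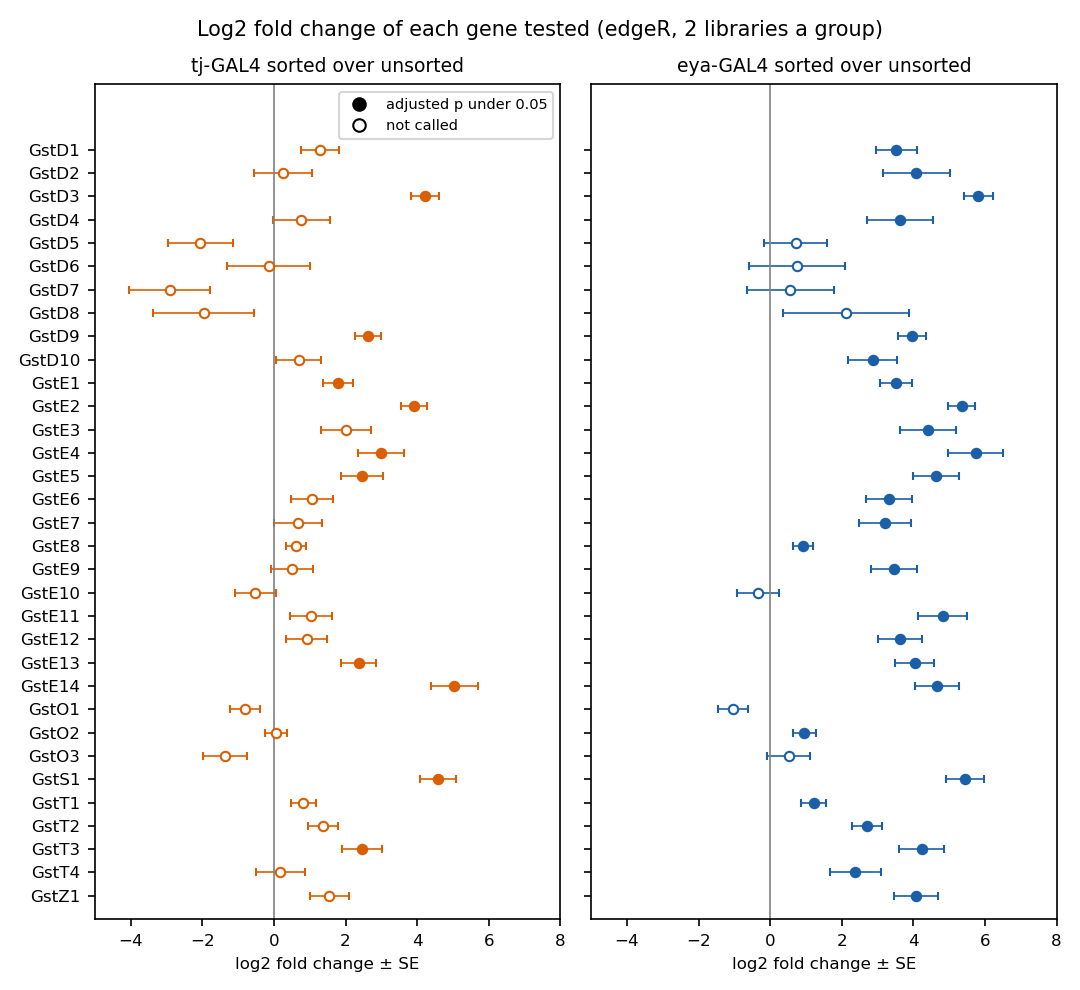
Log2 fold change ± SE of the 33 genes tested, sorted over unsorted cells, for tj-GAL4 (left) and eya-GAL4 (right); filled points passed adjusted p under 0.05. The filled points, 10 on the left and 26 on the right, all lie above 0, and GstO1 lies below 0 on both sides without passing.

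GstS1 is the one sigma-class gene of the fly, on chromosome arm 2R (dm6, 17093246 to 17099501, minus strand), and its enzyme is known to be abundant in flight muscle and to conjugate a lipid peroxidation product. It had 24588 and 16455 CPM in tj sorted, against 1008 and 693 CPM in tj unsorted cells, a log2 fold change of 4.59 ± 0.51 (adjusted p = 0.0019). In eya sorted cells it had 31778 and 35016 CPM, against 749 and 782 CPM in eya unsorted cells, a log2 fold change of 5.45 ± 0.53 (adjusted p = 0.00044). Sorted and unsorted libraries were far apart in both strains, and both calls held without each of the 8 libraries in turn, with fold changes of 4.24 to 4.88 for tj and 5.38 to 5.53 for eya. Ranked by CPM per kilobase among 16018 genes, GstS1 was 5 in both tj sorted libraries, against 89 and 282 in tj unsorted cells, and 4 in both eya sorted libraries, against 108 and 128 in eya unsorted cells. The 14 markers of the muscle sheath summed to 817 and 764 CPM in tj sorted, against 2188 and 2106 CPM in tj unsorted cells, and to 1023 and 853 CPM in eya sorted, against 1485 and 2233 CPM in eya unsorted cells, and 11 of the 14 fell in tj sorted cells, while 2 rose and 4 fell in eya sorted cells.

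The delta genes lie together on arm 3R within 12364776 to 12385624, with GstD10, GstD9 and GstD1 on the minus strand and GstD2 to GstD8 and GstD11 on the plus strand. The level differed strongly along this row. GstD1 had 1638 and 1213 CPM in tj sorted against 302 and 871 in tj unsorted cells, and 2502 and 3107 in eya sorted against 293 and 195 in eya unsorted cells. GstD1, which in flies breaks down the insecticide DDT and is used as a reporter of oxidative stress, gave 53.5% to 56.3% of all delta reads in the sorted libraries and 67.0% to 74.5% in the unsorted ones. Its log2 fold change was 1.28 ± 0.53 (adjusted p = 0.15) in tj cells, which missed the threshold although the libraries did not overlap, and 3.52 ± 0.58 (adjusted p = 0.0032) in eya cells. GstD3 had 798 and 565 CPM in tj sorted against 37.3 and 36.2 in tj unsorted cells, and 1002 and 1248 in eya sorted against 21.5 and 18.4 in eya unsorted cells. GstD9 had 499 and 371 CPM in tj sorted against 74.4 and 66.8 in tj unsorted cells, and 822 and 1233 in eya sorted against 68.1 and 63.8 in eya unsorted cells. For both genes the sorted libraries lay far above the unsorted ones in each strain, and the replicates of tj unsorted cells were close to each other. GstD3 rose by 4.21 ± 0.38 (adjusted p = 0.0014) in tj sorted and 5.82 ± 0.42 (adjusted p = 0.00031) in eya sorted cells, and GstD9 by 2.62 ± 0.37 (adjusted p = 0.0045) and 3.96 ± 0.39 (adjusted p = 0.00047). Per kilobase, the order in eya sorted cells was GstD1 at 3327 ± 508 CPM, GstD3 at 1508 ± 233, GstD9 at 1307 ± 370.2 and then GstD2 at 137 ± 62.2 (mean ± SD, n = 2), with GstD3 and GstD9 closer to each other than their spread.

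GstD2 had 60.7 and 47.7 CPM in tj sorted against 8.66 and 82.3 in tj unsorted cells, and 67.9 and 132 in eya sorted against 6.97 and 4.89 in eya unsorted cells. GstD10 had 38.6 and 26.8 CPM in tj sorted against 7.77 and 32.8 in tj unsorted cells, and 37.5 and 65.8 in eya sorted against 9.08 and 5.20 in eya unsorted cells. GstD4 had 3.89 and 2.17 CPM in tj sorted against 0.446 and 3.22 in tj unsorted cells, and 3.31 and 4.37 in eya sorted against 0.249 and 0.356 in eya unsorted cells. In these 3 genes the tj unsorted replicate 2 lay within or above the range of the tj sorted libraries and the replicate 1 well below it, so the tj groups overlapped, while the eya groups did not. They rose in eya sorted cells by 4.08 ± 0.93 (adjusted p = 0.01) for GstD2, 2.86 ± 0.68 (adjusted p = 0.012) for GstD10 and 3.62 ± 0.92 (adjusted p = 0.016) for GstD4.

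The remaining delta genes were low. GstD5 had 5.91 and 4.57 CPM in tj sorted against 4.35 and 39.5 in tj unsorted cells, and 7.65 and 11.6 in eya sorted against 8.90 and 2.98 in eya unsorted cells. GstD7 had 1.87 and 1.43 CPM in tj sorted against 1.41 and 23.6 in tj unsorted cells, and 0.62 and 1.15 in eya sorted against 0.995 and 0.267 in eya unsorted cells. In both, the tj unsorted replicate 2 was the highest of the 8 libraries, and neither passed the threshold in tj (-2.06 ± 0.91 (adjusted p = 0.17) for GstD5 and -2.92 ± 1.12 (adjusted p = 0.13) for GstD7) or in eya cells. GstD6 had 2.02 and 1.39 CPM in tj sorted against 0.149 and 3.77 in tj unsorted cells, and 0.724 and 0.606 in eya sorted against 0.684 and 0.133 in eya unsorted cells. GstD8 had 2.02 and 0.619 CPM in tj sorted against 0.335 and 9.81 in tj unsorted cells, and 0.413 and 1.03 in eya sorted against 0.373 and 0 in eya unsorted cells. They too were highest in the tj unsorted replicate 2, with 125 reads of GstD8 in that library against 27 or fewer in each of the others. Neither was called in any of the 5 comparisons by the edgeR fit with TMM scaling and no replicate block. In alternative fits GstD8 was called higher in tj unsorted than in eya unsorted cells, such as with DESeq2, where 2.55% of all genes were. GstD11 had 0 and 2 reads in tj sorted, against 7 and 3 in tj unsorted cells, and 0 in both eya sorted libraries, against 2 and 1 in eya unsorted cells. The delta genes GstD1 to GstD10 are close relatives, and the sources used here do not say how reads matching several genes were counted, so the split of reads among them is uncertain.

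**Figure D3:**
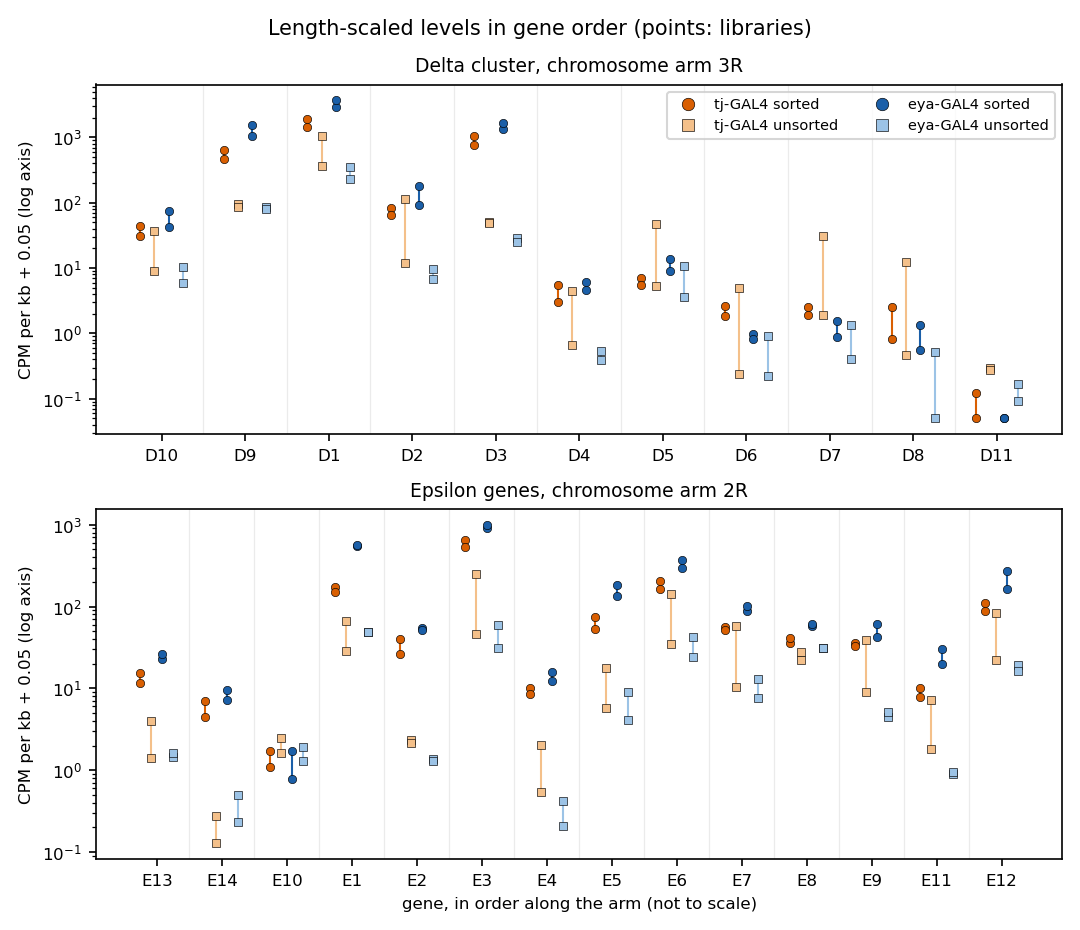
Levels per kilobase in gene order for the delta genes on arm 3R (top) and the epsilon genes on arm 2R (bottom), as CPM per kb + 0.05 on a log axis; points are libraries and lines join the 2 libraries of a group. Within the delta row, GstD9, GstD1 and GstD3 stand above the genes from GstD4 to GstD11, and GstE1, GstE3 and GstE6 stand high in the epsilon row.

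Of the epsilon genes, all on arm 2R, GstE10 and GstE1 to GstE9 form a row from 18396638 to 18409835, GstE11 starts at 18503608, and GstE12, GstE13 and GstE14 lie elsewhere on the arm. GstE3 had 487 and 401 CPM in tj sorted against 34.6 and 186 in tj unsorted cells, and 685 and 745 in eya sorted against 44.5 and 23.2 in eya unsorted cells. GstE3 gave 41.5% and 41.3% of the epsilon reads in tj sorted cells and 35.1% and 32.3% in eya sorted cells. Its fold change passed in eya cells at 4.40 ± 0.78 (adjusted p = 0.0042) and not in tj cells at 2.01 ± 0.70 (adjusted p = 0.099), although the sorted libraries lay above the unsorted ones in both strains. GstE1 had 146 and 126 CPM in tj sorted against 23.4 and 55.2 in tj unsorted cells, and 453 and 476 in eya sorted against 40.9 and 40.0 in eya unsorted cells. GstE2 had 35.6 and 23.3 CPM in tj sorted against 2.01 and 1.88 in tj unsorted cells, and 48.2 and 45.6 in eya sorted against 1.18 and 1.11 in eya unsorted cells. Both rose in both strains, GstE1 by 1.79 ± 0.42 (adjusted p = 0.031) in tj and 3.52 ± 0.45 (adjusted p = 0.0013) in eya sorted cells, and GstE2 by 3.91 ± 0.35 (adjusted p = 0.0014) and 5.35 ± 0.38 (adjusted p = 0.00031). GstE1 was the gene with the smallest p between the sorted groups, described further on.

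GstE4 had 8.46 and 7.16 CPM in tj sorted against 0.409 and 1.65 in tj unsorted cells, and 10.2 and 13.2 in eya sorted against 0.311 and 0.133 in eya unsorted cells. GstE5 had 53.9 and 39.2 CPM in tj sorted against 4.20 and 12.8 in tj unsorted cells, and 99.2 and 135 in eya sorted against 6.59 and 2.98 in eya unsorted cells. GstE13 had 16.2 and 12.1 CPM in tj sorted against 1.45 and 4.16 in tj unsorted cells, and 23.9 and 27.7 in eya sorted against 1.49 and 1.64 in eya unsorted cells. None of these 3 genes had overlapping groups in either strain, although their tj unsorted replicate 2 was well above the replicate 1. In tj sorted cells they rose by 3.0 ± 0.64 (adjusted p = 0.023) for GstE4, 2.47 ± 0.58 (adjusted p = 0.032) for GstE5 and 2.37 ± 0.50 (adjusted p = 0.021) for GstE13. In eya sorted cells they rose by 5.74 ± 0.76 (adjusted p = 0.0015), 4.62 ± 0.64 (adjusted p = 0.0018) and 4.03 ± 0.53 (adjusted p = 0.0015) in the same order.

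GstE14, at 13239729 to 13241013, encodes the enzyme known as Noppera-bo, which in flies is needed in the gland that makes the steroid hormone ecdysone. GstE14 had 7.03 and 4.41 CPM in tj sorted against 0.223 and 0.0785 in tj unsorted cells, and 7.13 and 9.64 in eya sorted against 0.187 and 0.445 in eya unsorted cells. The unsorted values rest on 6 and 1 reads in tj and 3 and 10 reads in eya cells, while the sorted libraries held 94 and 114 and 69 and 159 reads. GstE14 passed the filter on low counts through the sorted libraries alone, which limits what its p-values support. It rose by 5.03 ± 0.66 (adjusted p = 0.0033) in tj and 4.66 ± 0.62 (adjusted p = 0.0015) in eya sorted cells, and was 1 of 2 genes for which the tj fold change was not below the eya one.

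GstE6 had 153 and 122 CPM in tj sorted against 26.0 and 106 in tj unsorted cells, and 223 and 279.9 in eya sorted against 32.0 and 18.1 in eya unsorted cells. GstE7 had 42.8 and 39.6 CPM in tj sorted against 7.84 and 44.1 in tj unsorted cells, and 67.3 and 78.2 in eya sorted against 9.89 and 5.82 in eya unsorted cells. GstE9 had 28.1 and 25.6 CPM in tj sorted against 6.99 and 31.0 in tj unsorted cells, and 33.8 and 48.2 in eya sorted against 3.48 and 4.0 in eya unsorted cells. GstE7 and GstE9 overlapped between the tj groups through the tj unsorted replicate 2 and GstE6 did not, and none of the 3 passed in tj cells. In eya cells the groups were apart, with rises of 3.33 ± 0.64 (adjusted p = 0.0059) for GstE6, 3.21 ± 0.72 (adjusted p = 0.0098) for GstE7 and 3.45 ± 0.65 (adjusted p = 0.0052) for GstE9. GstE11 had 9.58 and 7.28 CPM in tj sorted against 1.67 and 6.75 in tj unsorted cells, and 18.9 and 28.2 in eya sorted against 0.809 and 0.845 in eya unsorted cells. GstE12 had 144 and 117 CPM in tj sorted against 29.0 and 109.6 in tj unsorted cells, and 217 and 352 in eya sorted against 25.1 and 21.0 in eya unsorted cells. In eya sorted cells GstE11 rose by 4.82 ± 0.69 (adjusted p = 0.0019) and GstE12 by 3.62 ± 0.62 (adjusted p = 0.0038), while in tj cells neither passed, although the groups did not overlap.

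The other epsilon genes had small fold changes. GstE8 had 40.1 and 45.9 CPM in tj sorted against 24.9 and 30.8 in tj unsorted cells, and 64.1 and 68.9 in eya sorted against 35.0 and 35.2 in eya unsorted cells. GstE8 rose in eya sorted cells by 0.92 ± 0.28 (adjusted p = 0.028), the smallest rise called among the 26, and did not pass in tj cells at 0.63 ± 0.28 (adjusted p = 0.17). GstE10 had 1.2 and 1.90 CPM in tj sorted against 1.78 and 2.75 in tj unsorted cells, and 0.827 and 1.88 in eya sorted against 2.12 and 1.42 in eya unsorted cells. GstE10 was the one epsilon gene that passed in neither strain, and its groups overlapped in both. It shares 127 bases with GstE1 on the opposite strand, and GstE9, GstE12 and GstE13 share 40, 33 and 6 bases with imd, CG3894 and CG18659. The library kit marks strand, but the sources used here do not give the strand setting of the counting, so reads within such overlaps cannot be assigned with certainty.

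The theta genes have relatives in vertebrates. GstT3 had 31.0 and 25.9 CPM in tj sorted against 2.94 and 7.53 in tj unsorted cells, and 28.9 and 33.6 in eya sorted against 2.49 and 0.889 in eya unsorted cells. GstT2 had 12.3 and 8.71 CPM in tj sorted against 2.94 and 5.26 in tj unsorted cells, and 19.4 and 27.8 in eya sorted against 3.67 and 3.60 in eya unsorted cells. The sorted libraries were above the unsorted ones for both genes in both strains. GstT3, on the X chromosome at 20467455 to 20469796, rose by 2.46 ± 0.57 (adjusted p = 0.029) in tj and 4.23 ± 0.62 (adjusted p = 0.0021) in eya sorted cells, while GstT2 passed in eya at 2.70 ± 0.42 (adjusted p = 0.0027) and not in tj cells at 1.37 ± 0.41 (adjusted p = 0.064). GstT2 shares 223 bases with CG12926 on the opposite strand. GstT1 had 22.4 and 25.8 CPM in tj sorted against 15 and 12.4 in tj unsorted cells, and 26.7 and 45.5 in eya sorted against 13.7 and 17.2 in eya unsorted cells. GstT4 had 20.6 and 14.5 CPM in tj sorted against 5.17 and 26.1 in tj unsorted cells, and 35.0 and 44.0 in eya sorted against 10.6 and 4.62 in eya unsorted cells. GstT1, which lies 107 bases from GstT2, had non-overlapping groups in both strains, with 0.81 ± 0.35 (adjusted p = 0.16) in tj and a rise of 1.22 ± 0.35 (adjusted p = 0.023) in eya cells. GstT4 rose in eya sorted cells by 2.38 ± 0.72 (adjusted p = 0.027) and overlapped between the tj groups, where the tj unsorted replicate 2 was the highest of the 4 tj libraries.

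Zeta enzymes isomerize maleylacetoacetate in the breakdown of tyrosine. GstZ1 had 7.63 and 6.77 CPM in tj sorted against 1.12 and 3.92 in tj unsorted cells, and 13 and 16.4 in eya sorted against 0.995 and 0.756 in eya unsorted cells. GstZ1 rose by 4.07 ± 0.62 (adjusted p = 0.0024) in eya sorted cells and did not pass in tj cells at 1.55 ± 0.56 (adjusted p = 0.11), although its groups did not overlap. Its neighbour GstZ2, 268 bases away on arm 3R, had 1 to 23 reads in each library and was not tested.

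The omega genes, a class known for thiol transfer and reduction, gave the smallest class ratios of sorted over unsorted levels. They lie with sepia (se), another omega gene outside the naming pattern that makes an eye pigment precursor, on arm 3L within 8518885 to 8524866. GstO1 had 19.8 and 27.6 CPM in tj sorted against 57.6 and 25.0 in tj unsorted cells, and 23.7 and 25.1 in eya sorted against 44.4 and 55.9 in eya unsorted cells. GstO1 was lower in eya sorted than in eya unsorted libraries without overlap, at -1.04 ± 0.42 (adjusted p = 0.068), and overlapped between the tj groups at -0.80 ± 0.42 (adjusted p = 0.22). GstO2 had 77.9 and 78.7 CPM in tj sorted against 61.4 and 89.9 in tj unsorted cells, and 94.3 and 128 in eya sorted against 57.7 and 57.4 in eya unsorted cells. GstO2 rose by 0.95 ± 0.31 (adjusted p = 0.037) in eya sorted cells, was 0.05 ± 0.31 (adjusted p = 0.92) in tj cells with overlapping groups (-0.04 with DESeq2 or its size factors, and -0.21 without the tj unsorted replicate 1), and shares 61 bases with se on the opposite strand. GstO3 had 39.3 and 35.5 CPM in tj sorted against 33.6 and 159 in tj unsorted cells, and 44.0 and 56.1 in eya sorted against 39.2 and 30.5 in eya unsorted cells. GstO3 stood out in the tj unsorted replicate 2 and passed in neither strain, at -1.36 ± 0.61 (adjusted p = 0.17) in tj and 0.52 ± 0.60 (adjusted p = 0.48) in eya cells. The summed omega CPM was 139 ± 3.38 in tj sorted, against 213 ± 85.8 in tj unsorted cells, and 186 ± 33.7 in eya sorted, against 143 ± 1.71 in eya unsorted cells (SD, n = 2). As ratios of such class sums, sorted over unsorted, the omega genes stood at 0.654 for tj and 1.30 for eya, the theta genes at 2.09 and 4.59, the epsilon genes at 2.83 and 11.8, the zeta genes at 2.51 and 12.5, the delta genes at 3.29 and 14.6, and GstS1 at 24.1 and 43.6. The tj ratios depended on the tj unsorted replicate 2: without it, a setting chosen after seeing the data, they were 0.913 for the omega, 3.1 for the theta, 6.52 for the epsilon, 3.9 for the zeta and 6.04 for the delta genes and 20.4 for GstS1, and epsilon then stood above delta. Without the tj unsorted replicate 1 they were 0.509, 1.57, 1.81, 1.85, 2.26 and 29.6 in the same order.

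The calls did not rest equally on the libraries. GstE14 entered the tests through its sorted libraries alone, so its calls rest in part on that filter. In tj cells, GstD3, GstD9, GstE2, GstE14 and GstS1 passed without each of the 8 libraries in turn. GstE4, GstE5, GstE13 and GstT3 were lost without either tj sorted library and without either eya sorted library (adjusted p up to 0.22), and GstE1 was lost also without either eya unsorted library (adjusted p up to 0.18). The eya libraries bear on tj calls because the 4 groups share each gene's estimate of spread. The number of genes called in tj cells was 5 without tj sorted replicate 1 or 2 and without eya sorted replicate 1 or 2, and 25 without tj unsorted replicate 2. In eya cells, 17 of the 26 passed without each library. The other 9 were GstE6, GstE7, GstE8, GstD2, GstD4, GstD10, GstO2, GstT1 and GstT4, which were lost without 1 to 4 of the eya libraries (adjusted p up to 0.20), GstT4 also without tj sorted replicate 2. The count in eya cells was 17 without eya unsorted replicate 4, the lowest of the 8 counts, where 9.21% of all genes were called higher.

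These counts are read against the share of all genes called higher under the same setting. In tj cells that share was 2.06% without tj sorted replicate 1, 4.96% without tj sorted replicate 2, 4.8% without eya sorted replicate 1, 4.75% without eya sorted replicate 2, 5.83% without eya unsorted replicate 3 and 5.81% without eya unsorted replicate 4. It was 11.7% with DESeq2 and 2.69% with limma, which called 8.42% and 2% of all genes lower. It was 2.32% with scaling to the total behind the RPM, 7.55% with DESeq2's size factors, 10.1% without mitochondrial genes, 7.64% without a filter, 9.48% with a minimum of 5 CPM and 7.61% with a replicate block. In eya cells it was 30.1% with DESeq2, 7.24% with limma and 8.25% with that scaling, under which 26, 19 and 21 transferase genes were called higher.

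The tj unsorted replicate 2 was higher than the mean of the other 3 unsorted libraries by more than 2-fold for 21 of the 33 genes (63.6%), against 22.1% of all genes, with a median log2 ratio of 1.73 over the 33 genes and 0.17 over all genes. Of the 16 genes called in eya cells alone, 12 were more than 2-fold higher in this library, so leaving it out raised their tj fold changes by construction. The tj fold changes without it are therefore no separate support for those in eya cells. Without it, the 10 genes called in tj cells lay between 2.51 and 4.61. Of the 16, GstE3 came to 3.66 ± 0.51, GstD1 to 2.21 ± 0.47, GstD2 to 2.62 ± 0.48, GstZ1 to 2.66 ± 0.46 and GstE7 to 2.37 ± 0.40. GstE8, GstO2 and GstT1 came to 0.76 ± 0.30, 0.32 ± 0.32 and 0.66 ± 0.36. GstD6, called in neither strain with all libraries, came to 3.42 ± 1.03, and GstO1 to -1.31 ± 0.30. GstD5, GstD7 and GstO3, negative with all libraries, came to 0.24 ± 0.57, 0.19 ± 0.74 and 0.13 ± 0.33, and GstD8 fell under the filter. Leaving out the tj unsorted replicate 1 instead gave 10 genes higher and 4 lower (GstD5, GstD7, GstD8 and GstO3), where 13.4% of all genes were called in each direction. The lone unsorted library is assumed in both fits to vary like the other groups.

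**Figure D4:**
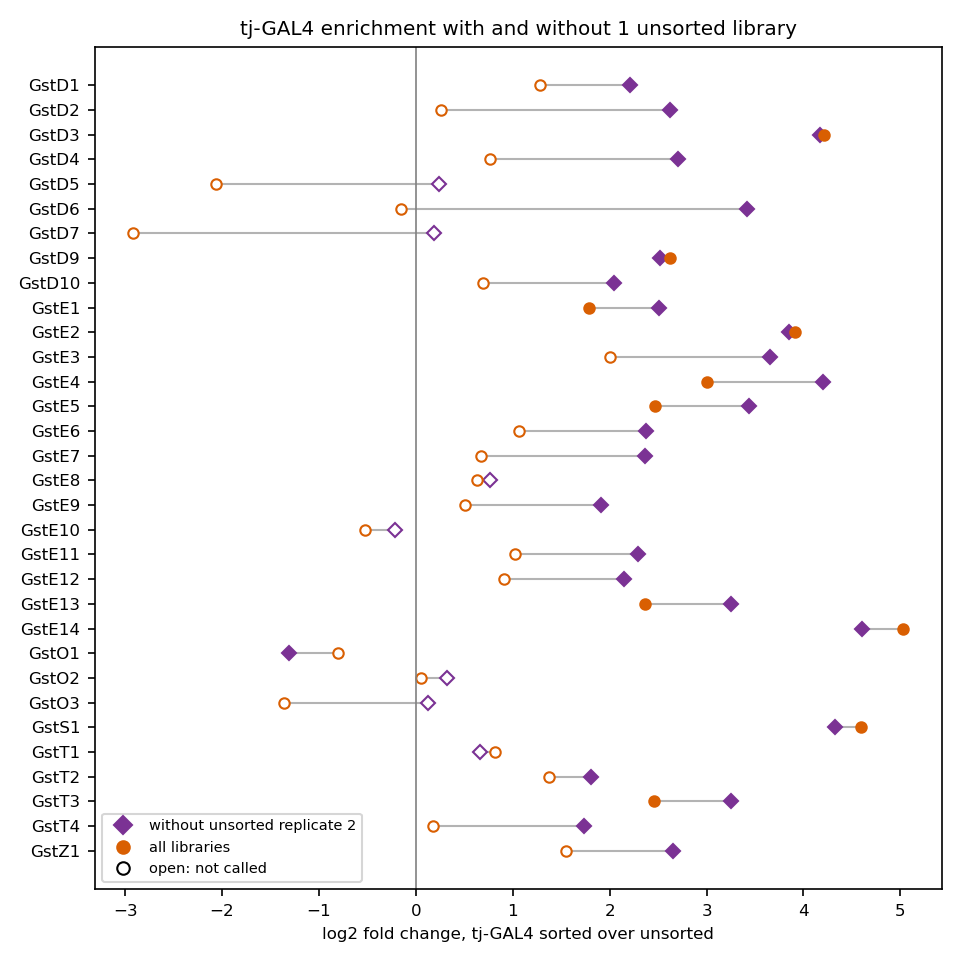
Log2 fold change of tj sorted over tj unsorted cells with all libraries (orange circles) and without the tj unsorted replicate 2 (purple diamonds); filled symbols passed adjusted p under 0.05. GstD3, GstD9, GstE2, GstE14 and GstS1 moved little, while GstD2 lay at 0.26 with all libraries and 2.62 without that one.

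The summed level of 12 fat body markers was higher in the sorted than in the unsorted libraries of both strains. It was 2718 and 1744 CPM in tj sorted, against 289.6 and 862 CPM in tj unsorted cells, and 3536 and 3497 CPM in eya sorted, against 254 and 180.0 CPM in eya unsorted cells. These sums were carried by the fatty acid synthase gene FASN1, with 1493 and 1018 CPM in tj sorted and 1636 and 1114 CPM in eya sorted cells, and the transferrin gene Tsf1, with 1193 and 689 CPM in tj sorted and 1871 and 2354 CPM in eya sorted cells. The larval serum and fat body protein genes Lsp1alpha, Lsp1beta, Lsp1gamma, Lsp2, Fbp1 and Fbp2 lay between 0.103 and 3.06 CPM in the 4 sorted libraries. Of the 12 markers, 2 rose and 7 fell in tj sorted cells, and 3 rose and 1 fell in eya sorted cells. Of 7 markers of pigment cells and terminal epithelium, 1 rose in tj and 5 rose in eya sorted cells. They summed to 459 and 343 CPM in tj sorted, against 306 and 1176 CPM in tj unsorted cells, and 510.4 and 824 CPM in eya sorted, against 564 and 798 CPM in eya unsorted cells. The gene Est-6 led this sum in the unsorted libraries, with 48.3% and 63.0% in tj and 94.0% and 95.5% in eya unsorted cells. It also led in eya sorted replicate 2 (54.3%), while the gene w led in the other sorted libraries (43.0% to 57.1%). These sums therefore do not follow the markers as a set. The 12 gut enzymes summed to 177 and 174 CPM in eya sorted, against 178 and 12.8 CPM in eya unsorted cells, with deltaTry and epsilonTry at 0 reads in eya unsorted replicate 4. The part of these markers' tissues in the transferase levels was not tested.

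No transferase gene was called between the sorted groups, tj against eya, where 0.0239% of all genes were called higher and 0.0875% lower in tj. At an unadjusted p under 0.05 there were 5 genes (15.2%), against 10.8% of all genes, all lower in tj sorted cells: GstE1 at -1.77 ± 0.42 (adjusted p = 0.22), GstD9 at -1.24 ± 0.35 (adjusted p = 0.31), GstT2 at -1.17 ± 0.40 (adjusted p = 0.41), GstE11 at -1.49 ± 0.58 (adjusted p = 0.45) and GstE5 at -1.33 ± 0.56 (adjusted p = 0.46). DESeq2 called GstD9 and GstE1 lower, as 1.22% of all genes, and limma none. The fold change was negative for 29 of the 33 genes and for 5464 of all 12570 genes tested, with a median of -0.69 over the 33 and 0.12 over all genes. Both tj sorted libraries were below both eya sorted libraries for 25 genes, as for 27.6% of all genes, and above them for GstD6 and GstD7, as for 29.3% of all genes. GstS1, with -0.70 ± 0.44, and the highest members of the other classes, GstD1 with -0.98 ± 0.53, GstE3 with -0.69 ± 0.68, GstO2 with -0.51 ± 0.31, GstT1 with -0.58 ± 0.35 and GstZ1 with -1.03 ± 0.53, did not pass. Scaling to the library total behind the deposited RPM moved the median of all genes by 0.51 in this comparison, and 27 of the 33 genes were then negative. Fitted without the unsorted groups, 8 genes were called lower in tj sorted cells (GstD9, GstE1, GstE5, GstE11, GstE12, GstT2, GstT4 and GstZ1), where 6.09% of all genes were called higher and 4.83% lower.

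No transferase gene was called between the unsorted groups either, tj against eya, where 0.0716% of all genes were called, 0.0239% higher and 0.0477% lower in tj. At an unadjusted p under 0.05 there were 17, against 11.8% of all genes, all higher in tj unsorted cells. DESeq2 called 5 higher (GstD2, GstD7, GstD8, GstE9 and GstE11), as 2.55% of all genes, and limma GstD7, as 1.09%. The median was 1.39 over the 33 genes and 0.14 over all genes, and it was 0.05 over 32 genes without the tj unsorted replicate 2. Without the tj unsorted replicate 1, 21 genes were called higher and 1 lower, where 22% of all genes were called higher and 9.54% lower.

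The fold change, sorted over unsorted, was smaller in tj than in eya cells for 31 of the 33 genes and for 6429 of all 12570 genes tested. GstE14 and GstO1 were the others of the 33. It was smaller for 29 of 33 when scaled to the total behind the RPM and for 27 of 33 with limma on that RPM. Without the tj unsorted replicate 2 it was smaller for 30 of 32 genes, and GstD6 and GstE10 were then the others. The difference of the fold changes, tj minus eya, had a median of -2.15 over the 33 genes and -0.03 over all genes. No gene was called, 0% of all genes being called in either direction, and the smallest adjusted p among the 33 was 0.33. At an unadjusted p under 0.05 there were 19, against 14.6% of all genes. DESeq2 called GstD1, GstD2, GstD3, GstE9, GstE11 and GstE12 lower, as 2.66% of all genes, and limma none. GstE11 had -3.80 ± 0.87 (adjusted p = 0.33), GstD3 -1.60 ± 0.48 (adjusted p = 0.33) and GstS1 -0.85 ± 0.62 (adjusted p = 0.47). Without the tj unsorted replicate 1, 24 genes were called lower, where 13.3% of all genes were called higher and 20.4% lower, and without replicate 2 none was called and the median was -0.87. The count of calls for this difference depended on which tj unsorted library was used.

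Lists of related genes covered glutathione synthesis and turnover, thiol reduction, other transferases, NADPH-forming enzymes, conjugate export and the cnc-Keap1 regulators. Of the 27 genes tested in these lists, 1 rose (3.7%) and 0 fell in tj sorted cells, where 8.98% of all genes rose. In eya sorted cells 11 rose (40.7%) and 3 fell (11.1%), where 28% of all genes rose and 20% fell. In flies, which lack a glutathione reductase, thioredoxin and its reductase keep glutathione reduced. The list of glutathione synthesis and turnover lacked Gss2, which was not found, and Gss1 had 0 reads in each library but eya sorted replicate 2. That list therefore does not cover every step of synthesis. Of its 6 genes tested, CG4829, of the gamma-glutamyl transferase family, rose in both strains, by 1.85 ± 0.36 (adjusted p = 0.015) in tj and 3.33 ± 0.38 (adjusted p = 0.0008) in eya sorted cells. It had 23.1 and 13.2 CPM in tj sorted, against 4.8 and 5.26 CPM in tj unsorted cells, and 49.5 and 45.2 CPM in eya sorted, against 4.23 and 5.16 CPM in eya unsorted cells. Gclm, the regulatory subunit of the rate-limiting synthesis enzyme, rose in eya sorted cells by 1.44 ± 0.34 (adjusted p = 0.012), CG17636 fell by 1.46 ± 0.39 (adjusted p = 0.019), and the catalytic subunit Gclc had 0.59 ± 0.31 (adjusted p = 0.13). Of 8 genes of thiol reduction, 0 were called in tj cells. In eya sorted cells 4 rose, Trxr-1 by 1.08 ± 0.31, Trx-2 by 1.87 ± 0.51, Grx1 by 1.28 ± 0.46 and the peroxidase gene PHGPx by 2.30 ± 0.41. Trxr-2 and the testis thioredoxin gene TrxT fell there (adjusted p of 0.0045 to 0.049 for the 6).

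Of 4 other transferase genes, the microsomal Mgstl rose by 3.89 ± 0.60 (adjusted p = 0.0025) and eEF1gamma, a translation factor with a transferase-like domain, by 2.75 ± 0.47 (adjusted p = 0.0037) in eya sorted cells, while se and gfzf passed in neither strain. Both export pumps of glutathione conjugates tested, MRP and Mrp4, rose in eya sorted cells, by 1.32 ± 0.39 and 2.07 ± 0.49, and of 4 enzymes that form NADPH, 1 did, Idh by 1.37 ± 0.31. No gene of these 3 groups passed in tj cells. The regulators did not pass in either strain: cnc had 274 and 234 CPM in tj sorted, against 199 and 285 CPM in tj unsorted cells, and 231 and 199 CPM in eya sorted, against 207 and 203 CPM in eya unsorted cells. The cnc fold changes were 0.07 ± 0.32 in tj and 0.07 ± 0.32 in eya cells, those of Keap1 -0.51 ± 0.42 and 0.35 ± 0.43, and those of maf-S -0.09 ± 0.37 and 0.72 ± 0.38. RNA levels do not measure the activity of these proteins.

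**Figure D5:**
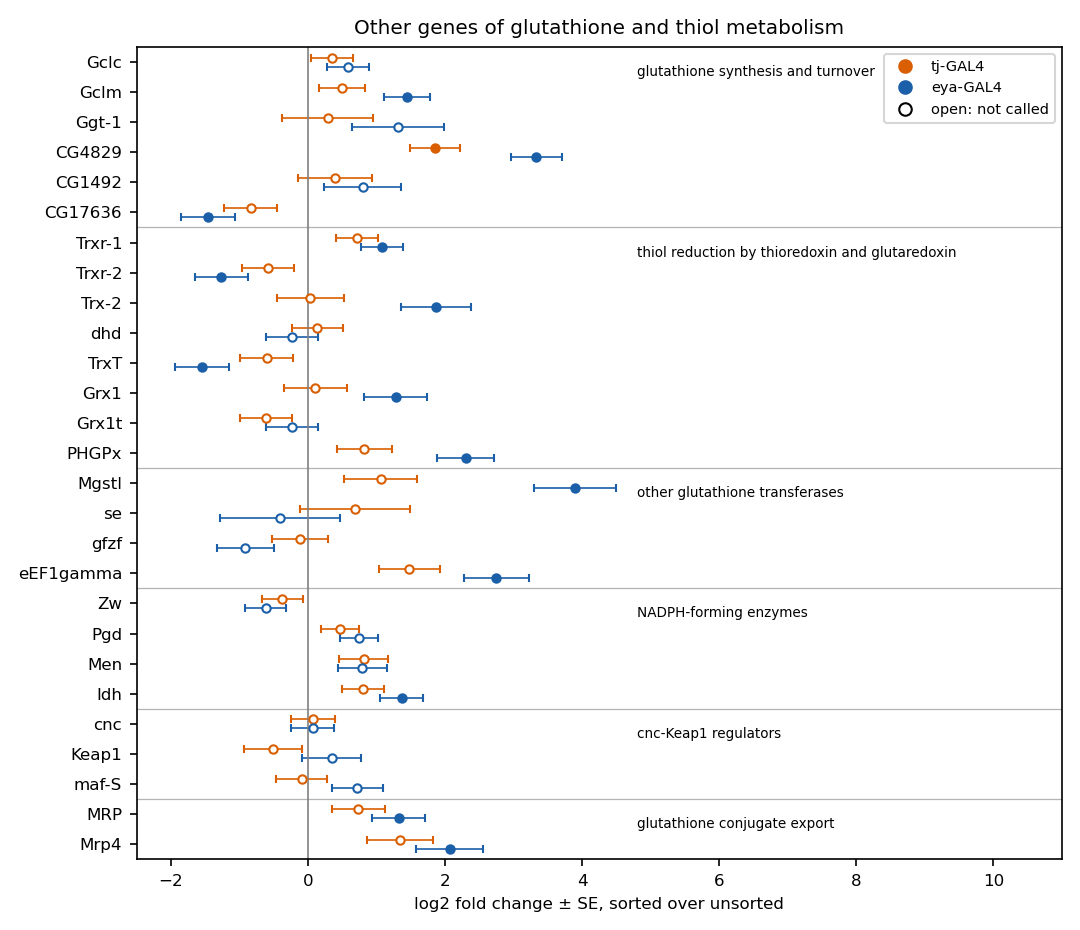
Log2 fold change ± SE, sorted over unsorted, of 27 other genes related to glutathione and thiol metabolism for tj-GAL4 (orange) and eya-GAL4 (blue). The genes include NADPH-forming enzymes and the cnc-Keap1 regulators, and filled points passed adjusted p under 0.05. CG4829 is the 1 gene filled for both drivers, and cnc lies near 0 for both.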

How the data were processed

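RNA-seq of 8 libraries in 4 groups of 2 was analysed. The deposited table holds read counts per gene, which the authors made with Bowtie 1.2.2 and HTSeq on dm6, per the submitters' processing notes, and deposited RPM values, used for the library total and for one alternative; the sources used here do not give the annotation release, the strand setting or the treatment of reads matching several genes. The members and marker and pathway lists were chosen with earlier results of these data known. Genes with at least 1 CPM in at least 2 libraries (12570 of 16018) were tested with edgeR 4.0.16 (R 4.3.3): TMM scaling, then a quasi-likelihood fit of the 4 groups together (4 residual degrees of freedom), two-sided tests of 5 comparisons, and Benjamini-Hochberg adjustment over all tested genes (threshold 0.05). The script was tested on simulated data. The SE of an edgeR fold change was derived as its absolute log2 value divided by the square root of the quasi-likelihood F statistic. It is unreliable for very small fold changes. CPM uses gene counts after TMM scaling. Every member that passed the filter is named with its values. Fold changes are given for members called, for those highest per kilobase in their class and for some other members not called. Alternatives were DESeq2 1.42.0, limma 3.58.1 on log2(RPM + 1), other scalings and filters, a replicate block and leaving out each library. Positions come from an Ensembl annotation in dm6 coordinates. Values in 20 other columns of the table were not used. The libraries of tj replicate 1 carry shorter index sequences than the others, so index length and the tj replicate number cannot be told apart.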

Additional observations from a re-analysis of the deposited data

How the results depend on the processing

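The number of transferase genes called was 10 in tj sorted over unsorted cells and 26 in eya sorted over unsorted cells, and 0 in each of the other 3 comparisons. DESeq2's size factors and leaving out mitochondrial genes changed none of these 5 counts, and the absence of a filter or a minimum of 5 CPM changed the eya count to 25. In tj cells the count was 5 with scaling to the total behind the RPM, 6 with limma and 4 with the compared groups fitted alone, where 1.9% of all genes were called higher. Between sorted groups it was 2 lower with DESeq2 (1.22% of all genes) and 8 lower with the compared groups alone (4.83%). Between unsorted groups it was 2 higher with that scaling (1.03%), 5 with DESeq2 (2.55%) and 1 with limma (1.09%), and for the difference of the fold changes 6 lower with DESeq2 (2.66%). Leaving out 1 library at a time gave 5 to 25 in tj cells, 17 to 27 in eya cells, 0 to 6 between sorted groups, 0 to 22 between unsorted groups and 0 to 24 for the difference. The 6 between sorted groups, all lower in tj, came without tj unsorted replicate 1 or 2. There 3.39% and 3.54% of all genes were called lower and 2.54% and 2.35% higher. The 27 in eya cells came from the same fits, where 35% and 34.3% of all genes were called higher and 31.8% and 33.1% lower.

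A replicate block for the tj libraries gave 10 and 26 genes in the tj and eya fold changes and 0 in the other 3. The tj replicate numbers are shared labels: the replicate 1 minus 2 differences of sorted and unsorted cells correlated at -0.38 across 12570 genes. The crossed pairing, chosen after seeing the data, gave 14 higher in tj cells (16.2% of all genes), 26 higher (32%) and GstO1 lower (27.2%) in eya cells, 27 in all, and 8 higher between unsorted groups (7.16%). The eya unsorted numbers match no eya sorted library.

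Scaling to the total behind the RPM shifted the fold changes of all genes by a median of -0.61 in eya cells, and limma on log2(RPM + 1) by a median of -0.65 per gene. The sign changed for these genes, highest per kilobase in their class and not called in the comparison named. GstO2 in tj cells came to -0.042 with DESeq2's size factors, -0.042 with DESeq2, -0.012 with limma, and from -0.21 to 0.32 with 1 library left out. Between sorted groups GstO2 came to 0.028 with limma. Between unsorted groups, leaving out 1 library gave -0.039 to 2.46 for GstE3, -0.11 to 2.19 for GstO3 and -0.14 to 0.34 for GstS1. In the difference GstT1 came to 0.19 with limma and -0.75 to 0.029 with 1 library left out. Of the other members, GstD5, GstD6, GstD7 and GstO3 changed sign in tj cells without tj unsorted replicate 2. In the difference GstD6, GstE10, GstE14 and GstO1 did. In tj cells 26 genes were positive and 7 negative with all libraries, against 19 and 14 without tj unsorted replicate 1. Between unsorted groups 28 were positive and 5 negative with all libraries, against 17 and 15 without tj unsorted replicate 2. The cause of each change was not tested.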
